A study of Drosophila melanogaster with 6 samples.

Results

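The glutathione S-transferase genes of the fly intestine were followed gene by gene across 6 polyA-selected RNA-seq libraries of Drosophila melanogaster. Members were all genes in the deposited count tables whose Ensembl symbol is Gst, a class letter (D, E, O, S, T or Z) and a number, which gave 35 genes of 17411. They comprise 11 delta (D), 14 epsilon (E), 3 omega (O), 1 sigma (S), 4 theta (T) and 2 zeta (Z) genes. The 9G8-RNAi libraries have the genotype Mex-Gal4>9G8RNAi and the control (GFP-dsRNA) libraries Mex-Gal4>GFPdsRNA, with 3 libraries each, lettered A, B and D in both. Both groups share the driver Mex-Gal4, which is active in enterocytes, the nutrient-absorbing cells of the midgut, while RNA was taken from the intestine with its other cell types. 9G8 is a splicing factor of the serine and arginine-rich family, encoded by x16. The labels give neither age nor sex, nor how many intestines were pooled. The labels conflict on 2 points: the control libraries are described as fat bodies, and the series' design text names a yolk driver in place of Mex-Gal4.

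Glutathione S-transferases join the tripeptide glutathione to reactive or fat-soluble compounds, which makes these easier to export, and some reduce lipid peroxides. In insects the delta and epsilon classes have expanded in tandem arrays and are best known for breaking down insecticides and plant toxins, and the midgut is one of their main sites of expression. The omega, sigma, theta and zeta classes are shared with vertebrates. Several delta and epsilon genes are textbook targets of CncC, the transcription factor that answers oxidative and xenobiotic stress and is held back by Keap1.

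The family is concentrated in a pair of gene clusters. All 11 GstD genes lie on chromosome arm 3R from 12364776 to 12385624 (BDGP6, coordinates of the deposited files), a stretch of 20.8 kb. Along the chromosome they run GstD10, GstD9 and GstD1 on the minus strand, then GstD2, GstD3, GstD4, GstD5, GstD6, GstD7, GstD8 and GstD11 on the plus strand. The main GstE cluster lies on 2R from 18396638 to 18409835, 13.2 kb with 10 genes: GstE10 on the minus strand, then GstE1 to GstE9 in number order on the plus strand. It was defined as GstE genes within 50 kb of another GstE gene. GstE11 lies 93772 bases beyond GstE9 and was therefore counted outside it, as were GstE12, GstE13 and GstE14 elsewhere on 2R. GstO1, GstO2 and GstO3 lie close together on 3L, with GstO1 240 bases and GstO3 1133 bases from GstO2. GstT1 and GstT2 lie close together on 2R, and GstZ1 and GstZ2 on 3R, while GstT3 and GstT4 are apart on X. In the counted gene models 16 members have no intron, 7 of them GstD and 9 GstE genes, and every one of these 16 lies in one of the clusters. Members are short, with a median exonic length of 881 bases over all 35. The close relatedness of neighbouring genes matters for the counts, because the labels do not say how reads that fit several copies were treated. Exons of 7 members also overlap a gene on the opposite strand (GstE1 with GstE10, GstE9 with imd, GstE12 with CG3894, GstE13 with CG18659, GstO2 with se and GstT2 with CG12926). The overlap is 223 bases for GstT2 and at most 61 bases for the others, and without a stated strand setting these reads cannot be told apart.

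Total counts were 26216430 to 66562756 per library. In CPM of total counts (read counts scaled to library size), 13 enterocyte markers summed to 84297 to 159247 in 9G8-RNAi and 64834 to 198403 in control libraries. Digestive protease genes made up most of this sum: in 9G8-RNAi A alphaTry gave 43329, Jon99Cii 25735, Jon65Aiv 10212 and betaTry 3704. No other enterocyte marker on the list exceeded 1379 in any library. The 14 fat body markers summed to 254.9 to 848.1 in 9G8-RNAi and 225.9 to 823.5 in control libraries. Among these Lsp2 did not exceed 0.102 in any library, while Yp3, a yolk protein gene, reached 220.3 in 9G8-RNAi A and 185.0 in control A. Control A stood apart: its 7 hindgut markers summed to 1239.6 CPM of total counts, against at most 55.7 in every other library. Its 12 muscle markers summed to 6902 against at most 1477, and its 16 Malpighian tubule markers to 1651 against at most 619.8. NKCC and Irk2 are on both the tubule and the hindgut list, and the other 14 tubule markers summed to 659.0 in control A, against at most 569.9 elsewhere. In CPM scaled by TMM, the targeted gene, x16, had 6.36, 11.5 and 6.59 CPM in 9G8-RNAi A, B and D, against 8.29, 7.14 and 20.03 CPM in control A, B and D. Its groups overlapped, with a log2 fold change of -0.53 ± 0.46 (SE) and an edgeR adjusted p of 0.918, so these libraries do not show a fall of the targeted transcript. In bulk RNA of this kind, fewer cells of a type and less RNA per cell cannot be told apart.

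Levels of different genes were compared per length, as TPM, a level corrected for gene length and library size, computed from the counts and the deposited exonic lengths. GstD1, known for its activity on the insecticide DDT and for a promoter used in oxidative stress reporters, was the highest member in all 6 libraries. It measured 443, 565 and 609.6 TPM in 9G8-RNAi A, B and D, against 683, 888 and 926 TPM in control A, B and D, and its mean of 686 TPM ranked 182 among all 17411 genes. On this scale every 9G8-RNAi library lay below every control library. GstD1 alone gave 29.0 to 40.5% of the family's summed TPM in 9G8-RNAi and 28.7 to 56.0% in control libraries.

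The omega gene GstO3 came next. Enzymes of this class carry a cysteine in the active site and act in thiol exchange. GstO3 measured 193.7, 178 and 153 TPM in 9G8-RNAi, against 269, 191 and 138 TPM in control A, B and D. It held place 2 among members in all libraries except 9G8-RNAi A, where GstE3 passed it. GstE12, the highest epsilon gene and one outside the cluster, measured 131, 123 and 152 TPM in 9G8-RNAi, against 228, 160.5 and 77.2 TPM in controls. GstD1 lay above both in every library, while the ranges of GstO3 and GstE12 over the 6 libraries overlapped, as did the 9G8-RNAi and control values of each.

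Below these, GstE3 averaged 110.0 TPM over the 6 libraries, GstE6 75.4, GstT4 75.2, GstE9 66.0, GstE7 55.2, GstD9 44.0 and GstT1 34.6 TPM. The ranges of neighbours in this order overlapped. The order among these 7 changed from library to library: GstE3 held places from 2 to 8, GstE7 from 6 to 15 and GstT4 from 4 to 8. GstD9 changed place most, at 18, 15 and 15 in 9G8-RNAi A, B and D and at 14, 4 and 3 in control A, B and D. Members with means between 1 and 31 TPM were GstE1, GstE5, GstE8, GstO2, GstT3, GstD7, GstD10, GstD5, GstS1, GstE13, GstE11, GstT2, GstE10, GstD8, GstZ1, GstD3, GstO1, GstD2 and GstD4.

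At the bottom, 6 members averaged under 0.5 TPM: GstD11 at 0.414, GstE2 at 0.24, GstD6 at 0.167, GstZ2 at 0.165, GstE4 at 0.111 and GstE14 at 0.0394 TPM. GstE14, known as noppera-bo for its part in steroid hormone synthesis in the larval ring gland, had 0 counts in 9G8-RNAi A and in control A and B. GstE2 lies between GstE1 at 30.4 TPM and GstE3, and GstE4 between GstE3 and GstE5 at 29.96 TPM, so low and high genes alternate within 13.2 kb. GstD6 likewise lies between GstD5 at 12.4 TPM and GstD7 at 13.4 TPM. Apart from GstD11 at the plus-strand end of its array, the low cluster genes thus lay between expressed neighbours.

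**Figure D1:**
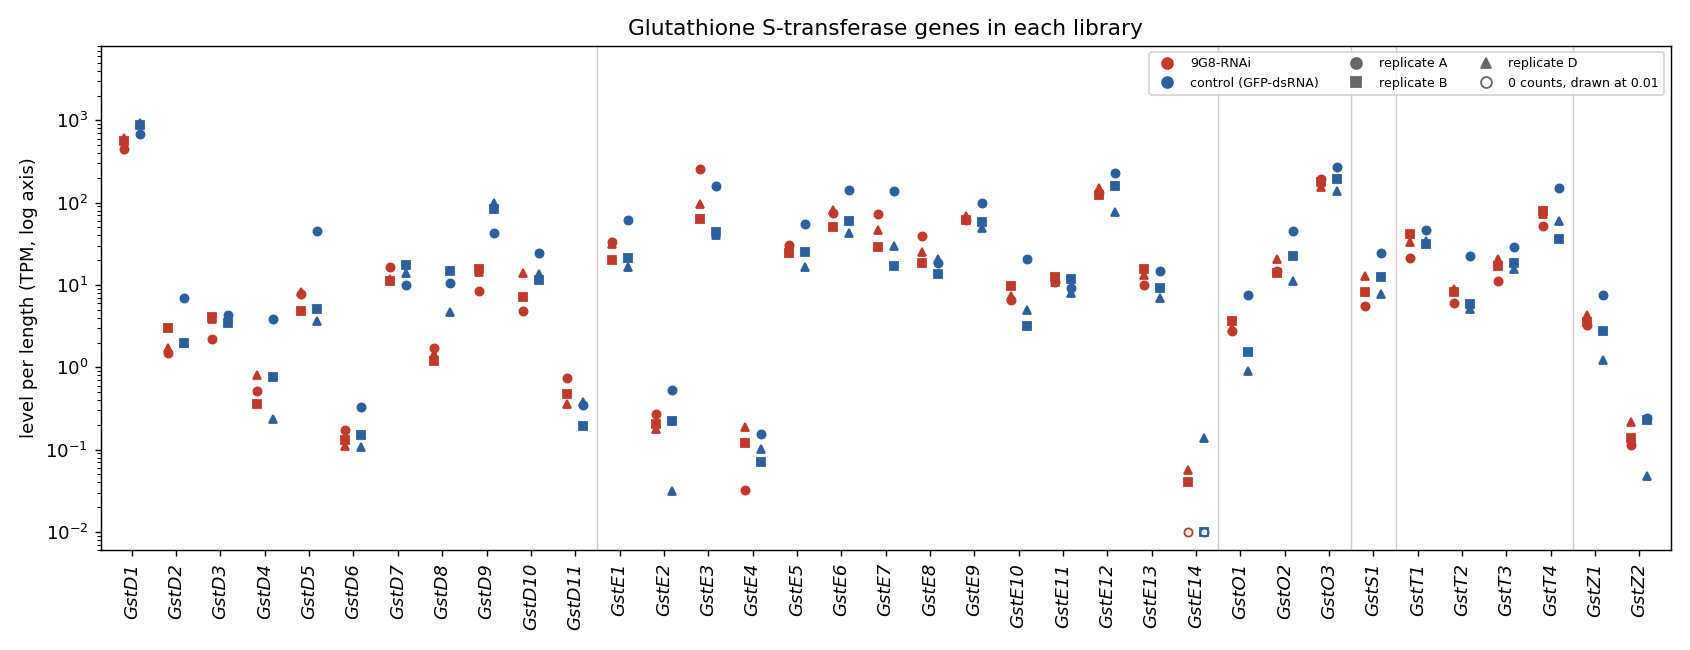
Level of each of the 35 genes in TPM (log axis) in each library, grouped by class, with 9G8-RNAi libraries (red) to the left of control libraries (blue) and marker shapes for replicates A, B and D. GstD1 is the highest gene in all 6 libraries, with a mean of 686 TPM, while GstE2 and GstE4 stay under 0.6 TPM between well-expressed neighbours, and GstD8 and GstD9 show separate red and blue points.

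The comparison of 9G8-RNAi with control libraries asks which members change when 9G8 is targeted in enterocytes. None of the 31 members that passed the filter on low counts was called by edgeR's quasi-likelihood test at an adjusted p under 0.05, where 0.118% of all 9285 genes tested were called. Past an unadjusted p of 0.05 were 3 of the 31 (GstD8, GstD9 and GstE3), against 4.53% of all genes tested. By limma-voom 0 members were called, against 0.0215% of all genes, and by DESeq2 2, GstD8 and GstD9, against 0.953%. The 4 members left untested were GstD6, GstE2, GstE4 and GstE14.

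The following values are CPM scaled by TMM, a factor that matches libraries on the bulk of their genes, and fold changes are 9G8-RNAi over control on the log2 scale. GstD8 (FBgn0010044, 3R from 12380008 to 12380815, 1 exon) is an intronless delta gene near the plus-strand end of its cluster. It measured 2.07, 1.29 and 1.04 CPM in 9G8-RNAi A, B and D, against 4.52, 11.5 and 6.66 CPM in control A, B and D. All 9G8-RNAi libraries lay below all control libraries. The fold change was -2.38 ± 0.44 (SE), with an unadjusted p of 6.3e-04 and an edgeR adjusted p of 0.157, the smallest of the family. DESeq2 gave GstD8 an adjusted p of 8.7e-04, and edgeR without the low-count filter 0.00827, with 0.309% of all genes called in that fit, and over all alternatives the adjusted p ranged up to 0.827 (without 9G8-RNAi B). The direction held in every one of them.

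GstD9 (FBgn0038020, 3R from 12366163 to 12367564, 1 intron) lies on the minus-strand side of the cluster, 252 bases from GstD1. It measured 9.98, 16.7 and 10.2 CPM in 9G8-RNAi A, B and D, against 17.8, 63.8 and 135.1 CPM in control A, B and D. The groups did not overlap, but control A lay close to 9G8-RNAi B and the controls themselves spanned a wide range. Its fold change was -2.55 ± 0.67 (SE), with an unadjusted p of 0.00516 and an edgeR adjusted p of 0.457. DESeq2 called it (adjusted p of 0.0178). Without control A, the library with hindgut and muscle markers, the change was -3.06 with an edgeR adjusted p of 0.0844, and without control D it was -1.64. Over all alternatives the adjusted p of GstD9 ranged up to 0.9997 (edgeR without 9G8-RNAi B).

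The remaining members with the smallest p among those below 0 were GstD10, GstS1, GstD4 and GstD1, in that order. GstD10 measured 6.25, 8.42 and 11.1 CPM in 9G8-RNAi, against 11.4, 9.59 and 21.1 CPM in controls, a fold change of -0.70 ± 0.38 (SE). GstS1, the sigma enzyme abundant in fly muscle, measured 18.9, 25.0 and 25.9 CPM in 9G8-RNAi, against 29.4, 26.95 and 31.3 CPM in controls. Its groups did not overlap on this scale, but the change was small at -0.33 ± 0.27 (SE), and in TPM or CPM of total counts they did overlap. The muscle markers were high in control A, and their part in the GstS1 values was not tested. GstD4 measured 0.557, 0.357 and 0.528 CPM in 9G8-RNAi, against 1.48, 0.532 and 0.296 CPM in controls, so that control A alone stood above the rest. Without that library its change was 0.14, against -0.70 with all 6.

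GstD1 (FBgn0001149, 3R from 12367817 to 12369268, 1 intron) measured 554.0, 646 and 461 CPM in 9G8-RNAi A, B and D, against 304, 718 and 1370.5 CPM in control A, B and D. The controls enclosed all 9G8-RNAi values, and the fold change was -0.53 ± 0.56 (SE). Without control D it was 0.20. The TMM factors of the libraries ran from 0.635 in control D to 1.68 in control A, so the scaling moves these 2 control values in opposite directions, and in TPM, as given above, the GstD1 groups did not overlap.

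On the higher side the smallest p belonged to GstE3, GstE13, GstZ1, GstO1, GstD11 and GstE8. GstE3 (FBgn0063497, 2R from 18400713 to 18401467) is an intronless epsilon gene in the cluster. It measured 289, 64.7 and 65.5 CPM in 9G8-RNAi A, B and D, against 62.8, 31.9 and 53.6 CPM in controls. The groups did not overlap, yet 9G8-RNAi A was far above the other libraries while 9G8-RNAi B and D lay next to control A. The fold change of 1.5 ± 0.64 (SE) had an unadjusted p of 0.0469 and an edgeR adjusted p of 0.918, and without 9G8-RNAi A it was 0.40.

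GstE13 measured 15.9, 22.6 and 12.7 CPM in 9G8-RNAi, against 8.33, 9.31 and 13.1 CPM in controls, with 9G8-RNAi D below control D. Its fold change was 0.74 ± 0.33 (SE). GstZ1 belongs to the zeta class, whose mammalian member is the isomerase of tyrosine breakdown that acts on maleylacetoacetate. It measured 4.38, 4.44 and 3.53 CPM in 9G8-RNAi, against 3.68, 2.39 and 1.97 CPM in controls, a change of 0.61 ± 0.33 (SE). Only the lowest 9G8-RNAi and the highest control library crossed.

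GstO1 measured 3.90, 4.75 and 2.59 CPM in 9G8-RNAi, against 3.81, 1.39 and 1.53 CPM in controls, a change of 0.73 ± 0.46 (SE). GstD11 measured 1.23, 0.713 and 0.36 CPM in 9G8-RNAi, against 0.204, 0.209 and 0.74 CPM in controls. GstE8 measured 64.8, 27.9 and 24.9 CPM in 9G8-RNAi, against 11.1, 14.8 and 41.1 CPM in controls. In both genes control D lay inside the range of the 9G8-RNAi libraries. Their changes were 1.05 ± 0.72 and 0.82 ± 0.58 (SE), and edgeR's adjusted p was 0.918 for all 5 of these genes.

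Among the other highly expressed members, GstE12 measured 271.5, 233 and 191 CPM in 9G8-RNAi, against 168, 215 and 189 CPM in controls, a change of 0.28 ± 0.33 (SE). GstO3 measured 253, 212.0 and 121 CPM in 9G8-RNAi, against 125, 162 and 214 CPM in controls, a change of 0.23 ± 0.40 (SE). The groups overlapped for both, and in each gene the highest library was 9G8-RNAi A.

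GstE6 had 84.4, 51.4 and 54.3 CPM in 9G8-RNAi and 56.2, 43.7 and 56.8 CPM in controls. GstE9 had 71.0, 65.2 and 49.0 CPM in 9G8-RNAi and 40.9, 43.7 and 67.5 CPM in controls. Both changed by 0.28 with an SE of at most 0.33, and the groups overlapped. GstE7 had 82.5, 29.9 and 31.7 CPM in 9G8-RNAi and 55.4, 12.3 and 39.5 CPM in controls, where control B was lowest and 9G8-RNAi A highest. Its change was 0.43 ± 0.61 (SE) and turned to -0.21 without 9G8-RNAi A.

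Of the theta genes, GstT4 had 94.3, 130.3 and 79.5 CPM in 9G8-RNAi and 97.7, 42.0 and 129 CPM in controls. GstT1 had 31.5, 56.4 and 29.6 CPM in 9G8-RNAi and 24.2, 29.9 and 59.97 CPM in controls. Neither showed a separation of groups, with changes of 0.18 ± 0.45 and 0.04 ± 0.44 (SE). The other 12 tested members, which are GstD2, GstD3, GstD5, GstD7, GstE1, GstE5, GstE10, GstE11, GstO2, GstT2, GstT3 and GstZ2, overlapped between groups with changes from -0.45 (GstD5) to 0.50 (GstE11). GstO2 varied least of the tested members on this scale, at 37.9, 33.0 and 32.4 CPM in 9G8-RNAi and 41.4, 37.5 and 33.7 CPM in controls, but in TPM its highest library was 4.08 times its lowest.

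Over the 31 tested members, groups did not overlap with 9G8-RNAi higher for 1 (GstE3) and with 9G8-RNAi lower for 3 (GstD8, GstD9 and GstS1). Over all genes tested these shares were 4.81% and 3.79%. In TPM the counts were 0 higher and 3 lower (GstD1, GstD8 and GstD9), beside 1.62% and 1.85% of all genes tested. In CPM of total counts they were 0 and 2 (GstD8 and GstD9), beside 2.5% and 1.58%. GstD8 and GstD9 were thus the members separated on all 3 scales, which rest on the same counts. The share of all genes separated on all 3 scales was not computed.

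**Figure D2:**
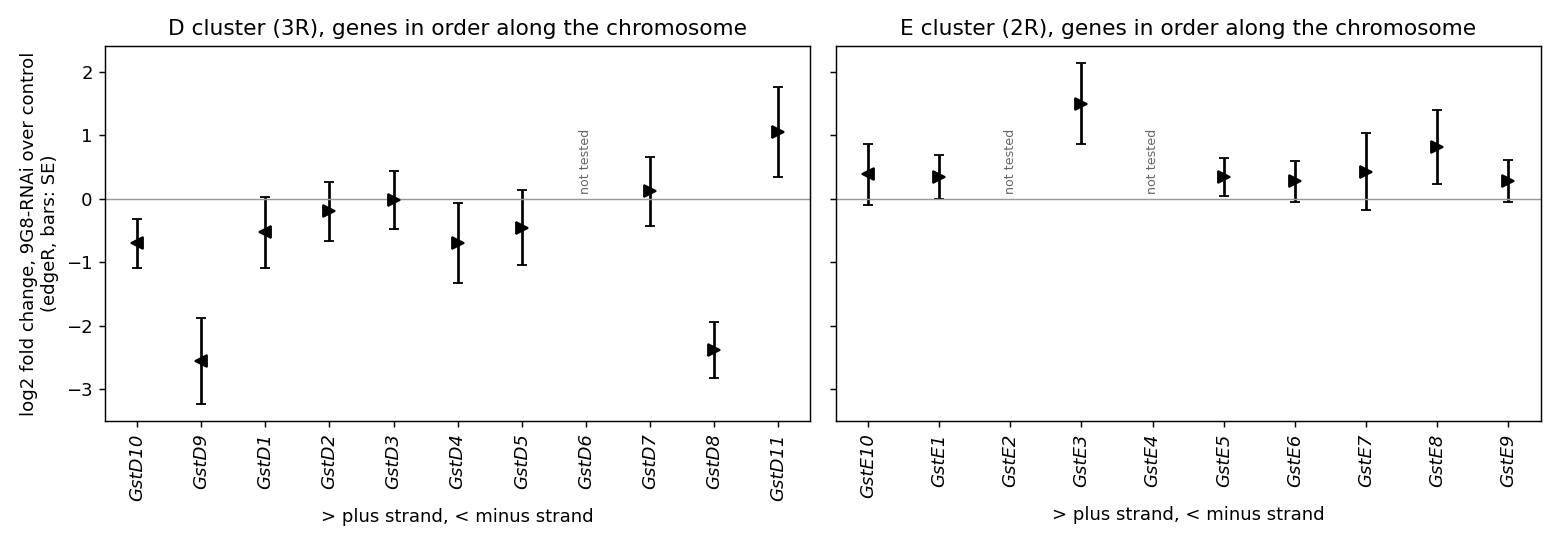
Log2 fold change of 9G8-RNAi over control (edgeR, bars are SE) for the genes of the D cluster (left) and of the E cluster (right), in order along the chromosome, with arrowheads for the strand. In the D cluster GstD9 and GstD8 lie lowest, at -2.55 and -2.38, while the tested genes of the E cluster lie between 0.28 and 1.5.

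The delta and epsilon classes lay on opposite sides of 0, without any member past the adjusted threshold. Of the 10 tested GstD genes 8 had a fold change below 0 and 2 above, with a median of -0.49. Of the 11 tested GstE genes all 11 were above 0, with a median of 0.39, and all but GstE3 and GstE8 lay within 0.75 of 0. The median over all 9285 genes tested was -0.07, with 44.2% above 0. In fits to counts, these 11 genes were above 0 under every other normalization, filter and test tried. Their median was 0.04 when only total counts were used, where the median of all genes was -0.33. Mean TPM was not fitted and went both ways. It was lower in 9G8-RNAi for GstE1, GstE5, GstE6, GstE7, GstE9, GstE10 and GstE12, and higher for GstE3, GstE8, GstE11 and GstE13. Summed over all 14 GstE genes, it was 572 TPM in 9G8-RNAi and 560 TPM in controls, and the groups overlapped. GstE2, GstE4 and GstE14, left untested, had changes of 0.51, 0.41 and -0.68 without the low-count filter, each smaller than its SE. Exceptions among the 11 were the fit without 9G8-RNAi A, where GstE7 turned, and removal of the trend with exonic length, where GstE6 turned, with medians of 0.17 and 0.15. The delta genes had medians below 0 in all these fits, but without control D the split was 5 and 5 and the median -0.10. Members of 1 cluster share libraries and possibly reads, so they are not independent counts of a direction.

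The omega genes had a median of 0.23, the theta genes 0.06, the zeta genes 0.46 and GstS1 -0.33. Over the whole family 20 members were above 0 and 11 below, with a median of 0.23. Exonic length moves with this value. Across all genes tested the log2 fold change and exonic length had a Spearman correlation of -0.475, given as a description since genes share libraries, and the tested members' median length was 881 bases against 2043 for all genes tested. With the length trend of each library removed, the members' median was -0.01 and that of all genes -0.05, while GstD8 and GstD9 stood at -2.67 and -2.69. By gene structure, the median was 0.28 over 13 tested members without introns and 0.20 over 18 with introns, beside 0.07 and -0.08 for all genes of each kind.

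Summed over the D cluster, the level was 487, 613 and 667 TPM in 9G8-RNAi A, B and D, against 831, 1028 and 1066 TPM in control A, B and D. All 9G8-RNAi sums lay below all control sums in TPM, and likewise in CPM of total counts. With TMM scaling the sums were 606.5, 698 and 502 CPM in 9G8-RNAi, against 368, 825 and 1566 CPM in controls, and these overlapped because control A was lowest of all. GstD1 made up 90.9 to 92.2% of the cluster's TPM in 9G8-RNAi and 82.1 to 86.8% in control libraries, so its share was larger in every 9G8-RNAi library.

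The other 10 D genes together gave 44.5, 48.1 and 57.0 TPM in 9G8-RNAi, against 149, 139.7 and 140.3 TPM in controls. This sum was separated between groups on all 3 scales, at 52.5, 51.7 and 41.2 CPM in 9G8-RNAi, against 63.8, 106 and 195 CPM in controls under TMM. GstD9 carried most of the difference. Its mean was 12.9 ± 3.8 TPM in 9G8-RNAi and 75.1 ± 28.8 TPM in controls (SD, n = 3 each). GstD5 followed with 6.99 ± 1.87 TPM in 9G8-RNAi and 17.8 ± 23.4 TPM in controls. Next came GstD8, with 1.45 ± 0.27 TPM in 9G8-RNAi and 10.02 ± 5.06 TPM in controls. GstD10 had 8.69 ± 4.88 TPM in 9G8-RNAi and 16.6 ± 7.06 TPM in controls. In control A, GstD5 contributed 44.9 TPM, against at most 8.28 TPM in the other libraries, about as much as GstD9 at 42.7 TPM there. This grouping without GstD1 was chosen after its values were seen, and no test is given for any sum.

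The E cluster summed to 576.5, 276 and 385 TPM in 9G8-RNAi, against 689.6, 243 and 220.5 TPM in control A, B and D. The groups overlapped, with control A highest and 9G8-RNAi A next. Under TMM the sums were 677, 301 and 275 CPM in 9G8-RNAi, against 287, 185 and 314 CPM in controls, where 9G8-RNAi A stood alone. GstE3 accounted for 258 of the 576.5 TPM in 9G8-RNAi A. The 4 GstE genes outside the cluster, with GstE12 the main contributor, summed to 152, 151 and 176 TPM in 9G8-RNAi, against 252, 181 and 92.3 TPM in controls, again with overlap.

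Omega genes summed to 211, 195 and 177 TPM in 9G8-RNAi, against 322, 215 and 150.1 TPM in controls, and theta genes to 90.6, 146 and 135 TPM in 9G8-RNAi, against 249, 91.4 and 115.2 TPM in controls. Zeta genes gave 3.34, 3.73 and 4.53 TPM in 9G8-RNAi, against 7.86, 2.96 and 1.28 TPM in controls. In TPM control A was the highest library in each of these classes, as it was for most genes, and the groups overlapped. Under TMM the highest sums were in 9G8-RNAi A for omega (295 CPM), control D for theta (234 CPM) and 9G8-RNAi B for zeta genes (4.88 CPM). The zeta groups were then just apart, with 3.977 to 4.88 CPM in 9G8-RNAi and 2.17 to 3.973 CPM in controls.

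**Figure D3:**
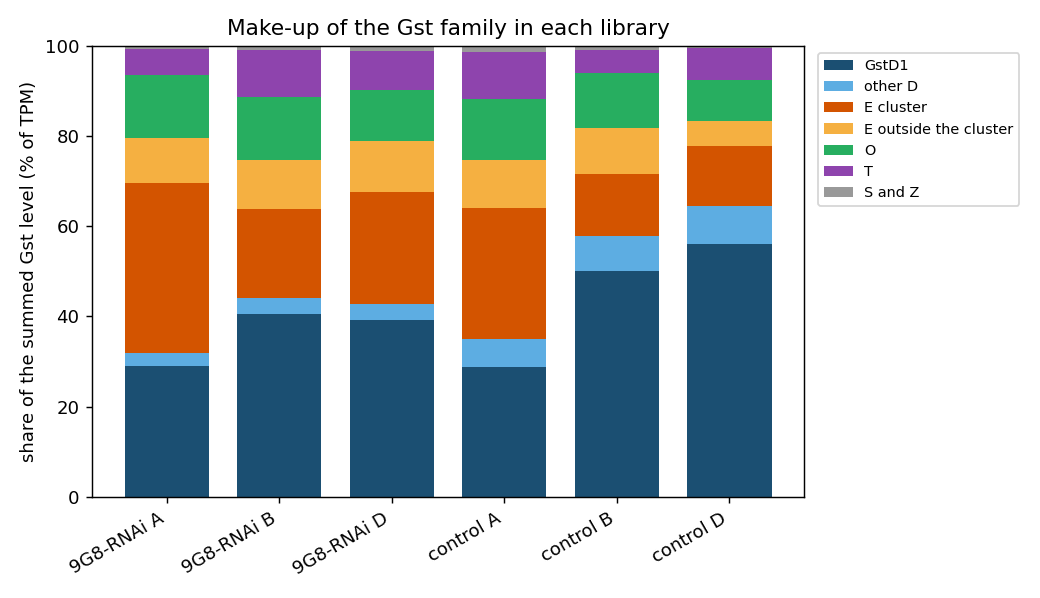
Share of the summed Gst level (percent of TPM) given by GstD1, the other D genes, the E cluster, the GstE genes outside it and classes O, T, S and Z, as stacked bars for each 9G8-RNAi library (left) and each control library (right). The D genes other than GstD1 take 2.91 to 3.66% in 9G8-RNAi and 6.26 to 8.49% in control libraries, while the E cluster takes 19.8 to 37.8% in 9G8-RNAi and 13.3 to 29.0% in control libraries.

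Ratios taken within a library do not depend on how libraries were scaled. The D cluster over the E cluster in TPM was 0.845, 2.22 and 1.73 in 9G8-RNAi A, B and D, against 1.21, 4.23 and 4.84 in control A, B and D. Both A libraries had the lowest ratio of their group, and the groups overlapped through control A. Without GstD1 the ratio was 0.0771, 0.174 and 0.148 in 9G8-RNAi, against 0.216, 0.575 and 0.636 in controls, with no overlap.

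Between neighbours, GstD9 stood at 1.93, 2.77 and 2.38% of the TPM of GstD1 in 9G8-RNAi, against 6.26, 9.52 and 10.6% in controls. GstD10, on the far side of GstD9, was 1.09, 1.26 and 2.32% of GstD1 in 9G8-RNAi, against 3.61, 1.29 and 1.48% in controls, and overlapped. GstD8 stood at 10.6, 10.4 and 12.2% of GstD7 in 9G8-RNAi, against 105, 85.2 and 34.0% in controls. GstD7 itself overlapped between groups, at 16.3, 11.3 and 11.8 TPM in 9G8-RNAi and 10.1, 17.3 and 13.8 TPM in controls. The GstD9 and GstD8 ratios were chosen after the gene values were seen, and they restate the same counts on a scale free of library factors.

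**Figure D4:**
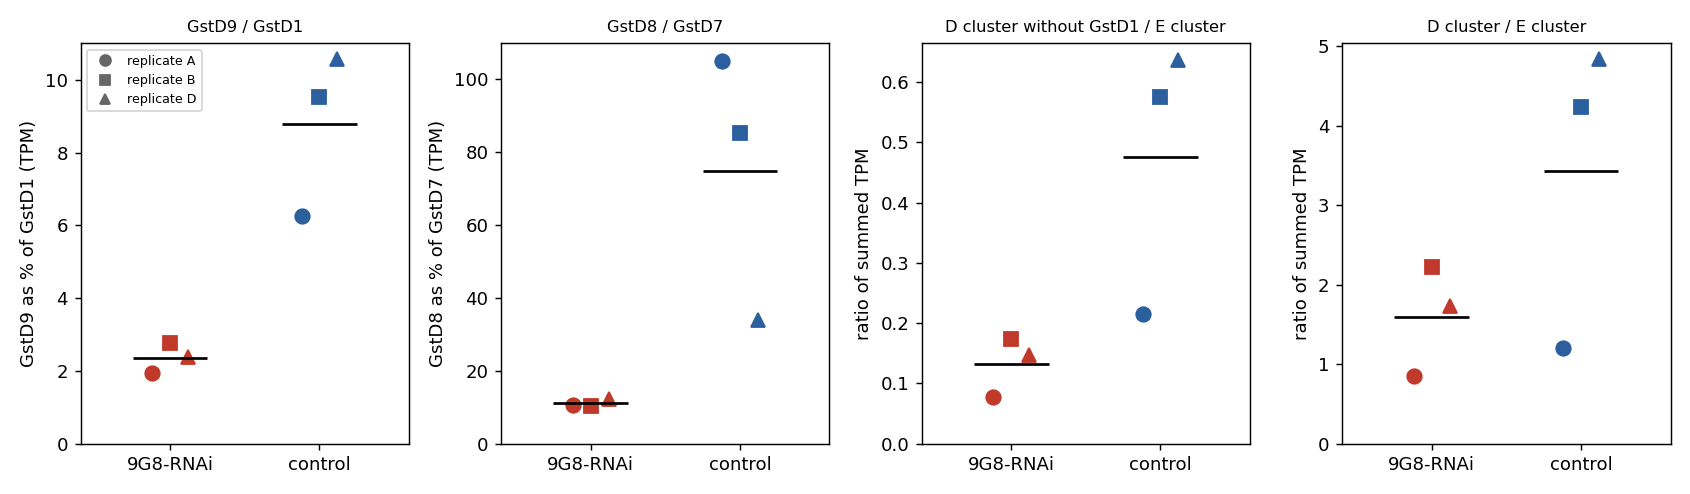
Ratios within each library for 9G8-RNAi (red, left) and control (blue, right), with lines at the group means and marker shapes for replicates. GstD9 over GstD1, GstD8 over GstD7 and the D cluster without GstD1 over the E cluster show no overlap between groups, while the full D cluster over the E cluster overlaps through control A at 1.21.

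In TPM 22 of the 31 tested members were highest in control A, where 77.4% of all tested genes were highest too, so this count is near the background of that library. In TMM-scaled CPM only 4 of 31 were highest there, beside 26.6% of all genes, namely GstD4, GstD5, GstO2 and GstT2. GstD5 measured 19.9 CPM in control A, against 4.06 to 9.79 CPM in the other libraries, and GstD4 1.48 against at most 0.557 CPM. Hindgut and muscle markers were high in the same library, and their part in these values was not tested. On this scale 9G8-RNAi A was the highest library for 10 of 31 members, 8 of them GstE genes, beside 11.8% of all genes tested. Control D was the highest for 8 of 31, among them GstD1, GstD3, GstD7, GstD9 and GstD10, beside 11.8% of all genes.

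The spread over the 6 libraries differed strongly between members. The highest over the lowest TMM-scaled CPM was 13.5 for GstD9, 11.0 for GstD8, 9.07 for GstE3, 6.69 for GstE7 and 6.03 for GstD11. It was lowest for GstO2 at 1.28, GstE12 at 1.61, GstS1 at 1.66 and GstE9 at 1.74. The order depended on the scale. In TPM the same ratio was 16.6 for GstD4, 12.6 for GstD8, 12.3 for GstD5 and 11.4 for GstD9, and it was lowest for GstE11 at 1.57, GstD7 at 1.72 and GstD3 at 1.94. GstD8 and GstD9 were thus among the most variable genes on both scales, whereas GstO2, GstS1 and GstE12 had ratios of 4.08, 4.36 and 2.95 in TPM.

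**Figure D5:**
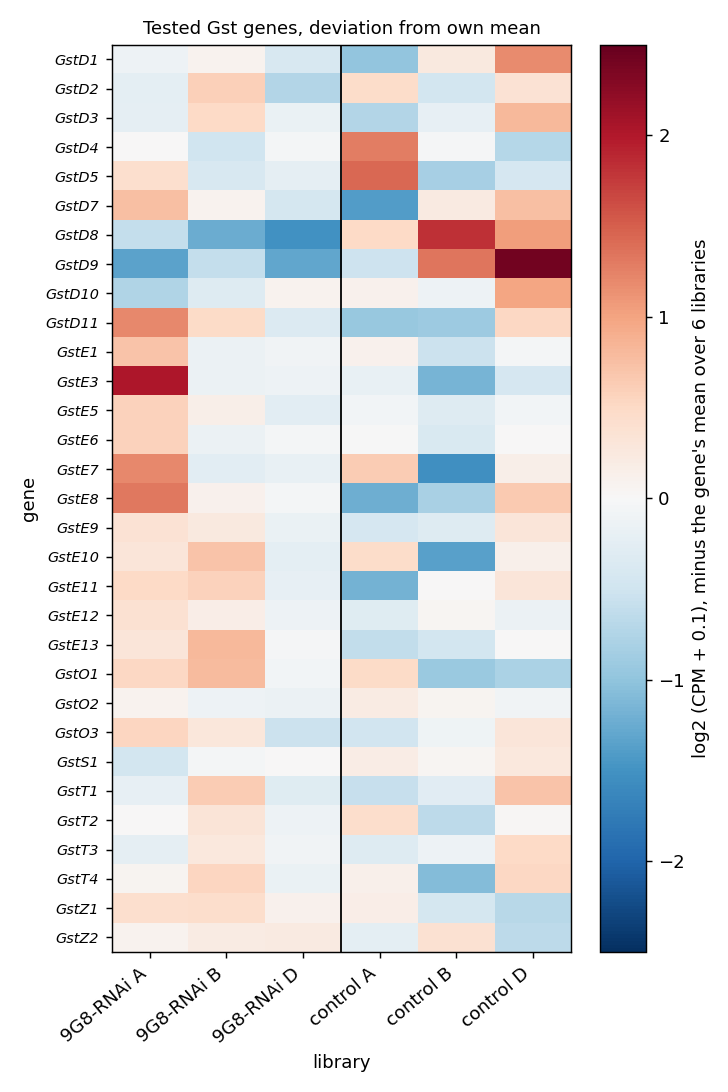
Deviation of each tested Gst gene from its own mean over the 6 libraries, as log2 (CPM + 0.1), with 9G8-RNAi libraries to the left of the line and control libraries to the right. GstD8 and GstD9 are below their mean in the 9G8-RNAi libraries, and GstD9 is below its mean in control A too. GstE3 is highest in 9G8-RNAi A, and GstD4 and GstD5 are highest in control A.

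The rest of the glutathione system showed no gene called by edgeR. Of 18 genes for glutathione synthesis and use, 14 were tested, with 0 called in either direction, 3 above 0 and 11 below, and a median of -0.30. None of them passed an unadjusted p of 0.05 or was called by DESeq2 or limma-voom, and the same held for the transferase-fold list and the regulators that follow. Mrp5, an ABC transporter of the multidrug resistance-associated family, averaged 501 ± 138 CPM in 9G8-RNAi and 630.1 ± 415 CPM in controls (SD, n = 3 each). Idh, the isocitrate dehydrogenase that supplies NADPH, averaged 266 ± 84.9 CPM in 9G8-RNAi libraries and 277 ± 65.2 CPM in controls. Of 7 proteins with a glutathione transferase fold outside the class symbols, 6 were tested, 0 were called and the median was -0.30. They include eEF1gamma, a translation elongation factor subunit, at 239 ± 65.1 CPM in 9G8-RNAi and 325 ± 105 CPM in controls, and Mgstl, the microsomal enzyme, at 131 ± 29.6 CPM in 9G8-RNAi and 162 ± 93.3 CPM in controls.

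Among 15 antioxidant enzymes 14 were tested, 0 were called by edgeR and the median was 0.10. Past an unadjusted edgeR p of 0.05 were 2 of the 14, beside 4.53% of all genes tested. DESeq2 called 1, Prx6c, beside 0.953% of all genes, and limma-voom 0, beside 0.0215%. Sod1, the cytosolic superoxide dismutase, averaged 1422 ± 441 CPM in 9G8-RNAi and 982 ± 619 CPM in controls, and the peroxiredoxin Prx2 275 ± 26.3 CPM in 9G8-RNAi and 323 ± 48.1 CPM in controls. The peroxiredoxin Prx6c, singled out after its values were seen, had 15.1, 14.1 and 12.7 CPM in 9G8-RNAi, against 1.98, 3.84 and 3.95 CPM in controls. Its groups were well apart, the change was 2.11 ± 0.34 (SE) and the edgeR adjusted p was 0.0917. It has close copies in the genome, with which reads may be shared.

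All 8 regulators on the CncC and Keap1 list were tested, with 0 called and a median of -0.18. The gene cnc itself averaged 109 ± 34.6 CPM in 9G8-RNAi and 124 ± 46.2 CPM in controls, and ref(2)P, an autophagy adaptor and CncC target, 188 ± 40.3 CPM in 9G8-RNAi and 217 ± 34.3 CPM in controls. Of 35 UDP-glycosyltransferases, which attach sugars to foreign compounds, 29 were tested, with 0 called by edgeR and a median of 0.03. Past an unadjusted edgeR p of 0.05 were 4 of the 29, beside 4.53% of all genes tested. DESeq2 called 2 of these genes, beside 0.953% of all genes, and limma-voom 0, beside 0.0215%. Their groups did not overlap in TMM-scaled CPM for 5 genes higher and 2 lower in 9G8-RNAi, beside 4.81% and 3.79%. Ugt37A2 averaged 49.8 ± 6.49 CPM in 9G8-RNAi and 84.8 ± 24.5 CPM in controls, and Ugt49B1 77.0 ± 16.1 CPM in 9G8-RNAi and 56.2 ± 13.6 CPM in controls. Of 85 cytochrome P450 genes, which oxidise such compounds ahead of conjugation, 73 were tested, with a median of 0.11. By edgeR 2 of them were called, Cyp12d1-d higher and Cyp6a17 lower, beside 0.118% of all genes tested. DESeq2 called 8 of the family, beside 0.953% of all genes, and limma-voom 0. At an unadjusted edgeR p under 0.05 were 17 of the 73, beside 4.53% of all genes tested. In TMM-scaled CPM the groups did not overlap for 12 genes higher and 14 lower in 9G8-RNAi, beside 4.81% and 3.79%. Cyp12d1-d averaged 4.32 ± 1.13 CPM in 9G8-RNAi and 0.0973 ± 0.0396 CPM in controls (edgeR adjusted p of 0.0102). Cyp6a17 averaged 1.73 ± 0.26 CPM in 9G8-RNAi and 11.4 ± 3.53 CPM in controls (edgeR adjusted p of 0.0382). Both have near copies, Cyp12d1-p and Cyp6a23, which may share reads.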

How the data were processed

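The authors deposited raw counts of reads for each gene, 1 file per library. The submitters' processing notes list the tools Trimmomatic 0.36, STAR 2.5.2b, Subread 1.5.2 with featureCounts, and build BDGP6. Tool settings, strandedness, handling of multi-mapping reads and the release of the annotation: not given in the sources used here. Groups follow the sample titles and genotypes. The labels do not say whether samples within a group came from separate flies, so p-values measure only the spread between these libraries, which may be technical.

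Symbols came from Ensembl release 115. Of 17411 identifiers 17137 matched, 218 were named by position (at least 80% reciprocal overlap) and 56 were not named. All 35 Gst genes matched by identifier with the same start and end. No genome or sequence table was used here, so no sequences are shown. The P450 list required a letter after the number in the symbol, which leaves out cyclophilins.

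Counts were compared with edgeR 4.0.16 in R 4.3.3: filterByExpr, TMM, the robust quasi-likelihood test and Benjamini-Hochberg adjustment over all 9285 genes tested, with a threshold of 0.05. CPM carry TMM scaling except where total counts are named, and TPM use the deposited exonic length. The SE of an edgeR fold change was derived from the test, as the absolute log2 fold change over the square root of the F statistic. The fit was tested on simulated counts. Sums, shares and ratios carry no test. The floor of 3 counts corresponds to 0.0386 to 0.148 CPM and covers counting error only. No library pair agreed within sampling noise. The smallest chi-square over its degrees of freedom, 246.9, was between libraries of different groups, 9G8-RNAi B and control D. Within groups the smallest was 348.2 in 9G8-RNAi (B and D) and 810.9 in controls (B and D). As alternatives, upper-quartile and RLE factors were tried, and total counts, other count filters, DESeq2 1.42.0, limma-voom (limma 3.58.1), the replicate block, leaving out each library, and library sizes that skip the 20 most-counted genes. Added after seeing the data was a fit without the length trend of each library. Tables were joined with Python 3.11.15.

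Members, lists and tests were chosen with earlier results of these data known. Values per library are given for members past the threshold, the 10 highest by mean TPM and the 6 per direction with the smallest p. From other lists, genes past the threshold are named, otherwise the 2 with the highest mean CPM.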

Additional observations from a re-analysis of the deposited data

How the results depend on the processing

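Of 188 fold changes of named members recomputed under alternatives other than leaving out a library, 180 kept direction and side of the threshold, 3 passed it (GstD8 with DESeq2 and without the low-count filter, GstD9 with DESeq2) and 5 changed sign, all near 0. These 5 were GstT1 and GstT4 with total counts only (-0.0345 and -0.0440), and GstE6, GstO3 and GstT1 with the length trend removed (-0.0148, -0.0288 and -0.16). Members called were 0 higher and 0 lower, but 1 lower without the low-count filter and 2 lower with DESeq2. The cause was not tested. Over all genes, 11 were called (8 higher, 3 lower), against 17 with total counts only (8 lower), 50 without the filter (34 and 16), 99 with DESeq2 (63 and 36), 2 with limma-voom (2 and 0) and 20 with the length trend removed (13 and 7).

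Leaving out each library gave 0 to 11 genes called, 0 to 9 higher and 0 to 2 lower, with 0 members in every case, and a members' median from 0.04 to 0.47. Sign changes occurred for GstD1 (-0.96 to 0.20), GstD4 (-0.98 to 0.14), GstE7 (-0.21 to 0.81), GstT1 (-0.31 to 0.64) and GstT4 (-0.16 to 0.64). Same-lettered libraries showed no shared deviation from their group means, with correlations of -0.02, -0.35 and -0.46 for A, B and D. No label says what the letters mark. Deviations within a group sum to 0, so these values cannot show whether libraries of the same letter were handled together. With the replicate block 0 genes were called (0 higher, 0 lower), the members' median was 0.25 and GstD8 stood at -2.33.

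The log2 ratio of summed levels was 0.67 for the E cluster with TMM and 0.10 in TPM, and 0.32 for the GstE genes outside it with TMM, 0.0693 with total counts and -0.13 in TPM. The search for motifs in promoters was not run, since no genome was used here. Depth limits GstD6, GstE2, GstE4 and GstE14, which were not tested.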
